A study of Drosophila melanogaster with 19 samples.

Results

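The genes described here encode the nuclear subunits of the 5 mitochondrial complexes of oxidative phosphorylation (OXPHOS). They were taken by their FlyBase symbol: those that start with ND-, UQCR-, ATPsyn or COX and a digit, together with cype, levy, ox, Cyt-c1, RFeSP, SdhA, SdhB, SdhC and SdhD. The rule found 89 of the 17807 genes in the table, of which 40 belong to complex I, 4 to complex II, 12 to complex III, 18 to complex IV and 15 to complex V. It uses names and no measured value, and it leaves out the complex V subunits blw and sun, whose symbols follow another pattern.

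The 19 RNA libraries were made from *Drosophila melanogaster* embryos of stages 12 to 14 that were selected by hand for GFP, with several embryos pooled in each library. The null embryos (n = 4) carried 2 different null alleles of *chiffon*, ETBE3 and DsRed, in trans, together with Actin-Gal4 and UAS-10XGFP. The ΔN, FLWF24 (n = 4 each) and FL (n = 3) embryos had the same *chiffon* null background plus a single copy of a rescue transgene under the regulatory sequences of *chiffon*. ΔN lacks the N-terminal part of the protein, FLWF24 has an early stop codon, and FL is full length. By the study's account the first pair make Chiffon-B, which forms the CHAT acetyltransferase complex with Gcn5, but not Chiffon-A, the activating subunit of the DDK kinase. The WT embryos (n = 4) were the parental act-Gal4>GFP control. The comparisons ask how subunit transcripts stand without *chiffon*, and with Chiffon-B alone.

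Complexes I to IV pass electrons from NADH and succinate to oxygen, and complexes I, III and IV pump protons across the inner mitochondrial membrane while they do so. Complex V, the ATP synthase, uses the proton gradient to make ATP. Each complex apart from complex II is built from nuclear and mitochondrially encoded subunits, some of which carry the catalytic and redox centres (core subunits), while others assemble around them (accessory subunits). In flies, muscle is known for its high content of these complexes, and many subunits have a second gene used mainly in testis.

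Libraries held 5161281 to 21621677 counts in genes other than rRNA, and 11978 genes passed the expression filter and were tested. *chiffon* RNA (chif) was at 22.3 to 38.0 CPM (counts scaled to library size by TMM) in null libraries. It was at 222.2 to 248.8 CPM in FL, 220.6 to 313.3 CPM in FLWF24 and 213.2 to 269.8 CPM in WT. In ΔN it was higher, at 548.6, 482.8, 497.0 and 250.4 CPM. The study also reports higher RNA from the ΔN transgene, and proposes that a slight gain of CHAT function could follow. Markers of muscle and cuticle were high in null libraries. A stage score, which sets muscle and cuticle markers against early embryo genes, was 2.28 to 5.28 in null, -0.66 to 3.18 in ΔN, 0.58 to 2.06 in FLWF24, -0.81 to 0.47 in FL and 0.59 to 2.31 in WT, so genotypes differed in apparent stage as well as in *chiffon*. In these bulk samples, fewer cells of a type and less RNA per cell cannot be told apart.

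Of the 89 subunit genes, 75 were tested. These were 66 of the 68 main genes and 9 of the 21 copies whose symbol adds an L. The tested main genes were abundant, with a median of 97.6 CPM per kb of exon over the 19 libraries, against 10.6 for all tested genes with an exon length. They are also short, with a median of 862 exon bases against 1872. On the per kb scale, complex IV genes had the highest median (210.5), followed by complex V (142.2), complex III (138.2), complex I (75.5) and complex II (58.8). The ranges overlapped widely. Complex I genes lay between 27.1 and 192.2 CPM per kb, while complex V genes lay between 42.8 and 575.7.

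The highest gene of each complex per kb was ATPsynC in complex V (575.7 CPM per kb), which encodes the c subunit of the proton-driven rotor ring. COX5A led complex IV (401.3), UQCR-14 led complex III (203.0), ND-B12 led complex I (192.2) and SdhB, the iron-sulfur subunit of succinate dehydrogenase, led complex II (110.6). UQCR-14 lies on X (16286288 to 16286988, plus strand, BDGP6), and all 523 of its exon bases are also covered by exons of CG32576 on the opposite strand. Since the strand setting of the counting may not have matched the library kit, the value of UQCR-14 is uncertain. In all, 32 tested subunit genes shared some exon bases with a gene on the opposite strand and 6 with one on the same strand.

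**Figure D1:**
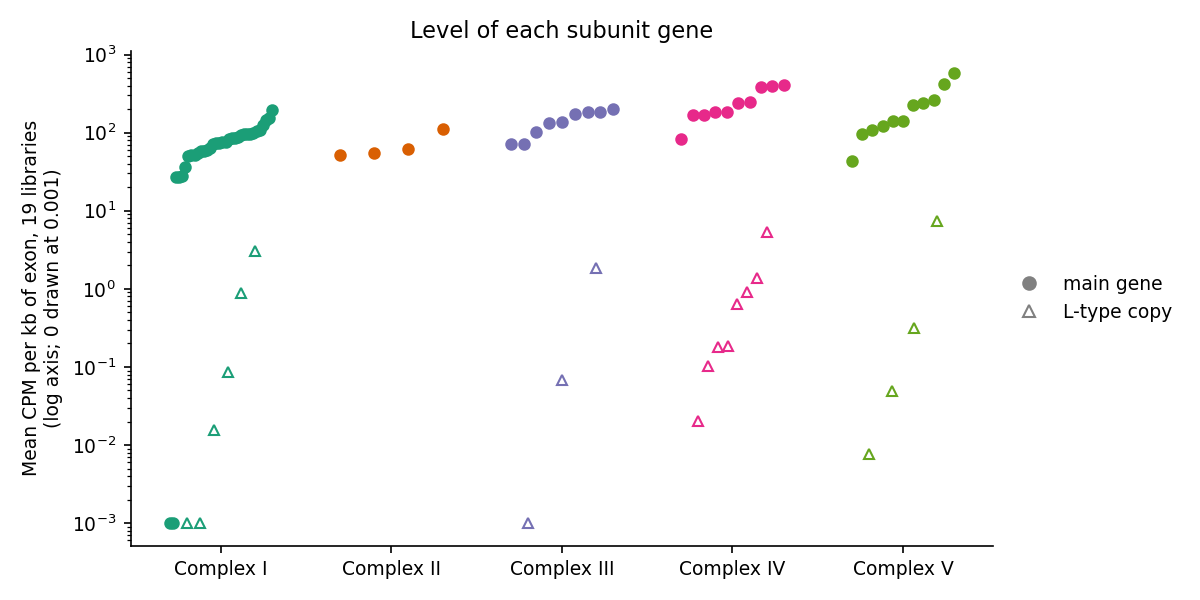
Mean CPM per kb of exon over the 19 libraries (log axis) for each subunit gene, grouped by complex. Circles are main genes and open triangles are L-type copies. Genes at 0 are drawn at 0.001. Tested main genes lie between 27.1 and 575.7, and the copies lie well below them in complexes I, III, IV and V. Complex II has no copy.

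The L-type copies were almost silent. Their mean over the 19 libraries was under 1 CPM for 17 of 21, and 3 of them (ND-20L, ND-49L and UQCR-14L) had no count in any library. Their main genes with a value averaged at least 40.5 CPM (UQCR-6.4) and up to 622.5 CPM (ATPsynbeta). ND-51L1 was the highest copy at 6.46 CPM, beside 116.8 CPM for ND-51, the flavoprotein subunit of complex I that accepts electrons from NADH. It was found in 18 of the 19 libraries.

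ATPsynepsilonL followed at 3.57 CPM, COX7CL at 2.22 CPM beside 156.4 CPM for COX7C, and ND-51L2 at 1.39 CPM. The other tested copies were UQCR-11L (0.830 CPM, against 114.2 for UQCR-11), COX6AL (0.753, against 232.6 for levy), ATPsynbetaL (0.634, against 622.5 for ATPsynbeta), COX5BL (0.583, against 133.9 for COX5B, and wholly within exons of Trmt6) and COX4L (0.4656, against 292.1 for COX4). Counts of some copies were uneven between libraries. COX7CL had a count in 11 libraries, the highest being 82 in ΔN replicate 3, and 0 counts in 8, every FL library among them. The 18 counts of ND-B14.5AL (main gene ND-B14.5A, 85.5 CPM) all came from a single library. The fitted log2 fold changes of the 9 tested copies ran as far as -7.55 and 9.15, and none was called by edgeR, while DESeq2 called COX7CL higher in ΔN than in FL.

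The remaining untested copies were at a mean of 0.106 CPM or below: ND-24L (ND-24 at 78.8 CPM), UQCR-6.4L (UQCR-6.4 at 40.5), COX6AL2 (levy), COX6CL (cype at 88.0), COX7AL and COX7AL2 (COX7A at 117.4), ATPsynCF6L (ATPsynCF6 at 85.4) and ATPsynGL (ATPsynG at 109.6). Main genes of the copies without a count were measured at 66.5 CPM (ND-20), 156.0 CPM (ND-49) and 106.2 CPM (UQCR-14). The pair of main genes at 0 in every library were ND-MNLL and ND-B8, accessory subunits of complex I. All 720 exon bases of ND-MNLL are shared with CG45089 on the same strand, and default counting assigns a read that fits both genes to neither. ND-B8 shares 71 of its 460 exon bases, on the opposite strand, with Gs1l, so its 0 is given as a value of the table only.

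The summed share of the subunit genes in each library was highest in null embryos. It made up 1.54%, 0.938%, 0.967% and 1.28% of gene counts in null libraries, and 0.662%, 0.660%, 0.619% and 0.854% in ΔN. It was 0.856%, 0.882%, 0.972% and 0.780% in FLWF24, 0.788%, 0.825% and 0.773% in FL, and 0.905%, 0.902%, 0.859% and 0.854% in WT. All null libraries lay above all FL and WT libraries, while the null and FLWF24 ranges overlapped. ΔN had the 3 lowest libraries of all 19, and its highest, replicate 4, was level with the lowest WT library.

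The share moved with stage markers in part. Null replicates 1 and 4, with stage scores of 5.27 and 5.28, had the 2 highest shares, but null replicate 2, with a score of 4.47, had the lowest of its genotype. ΔN replicate 4 had the highest stage score of its genotype (3.18) and also the highest share. FL libraries had low stage scores (-0.81 to 0.47) with shares above 3 of the 4 ΔN libraries, whose scores were -0.66, 0.46 and 1.55. The library with the highest share was also the one with the most multimapped reads in null (replicate 1, 79.9% of its column), ΔN (replicate 4, 85.3%), FLWF24 (replicate 3, 79.9%) and FL (replicate 3, 65.8%), but not in WT. The part of either in the shares was not tested beyond the fit with the stage score given below.

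**Figure D2:**
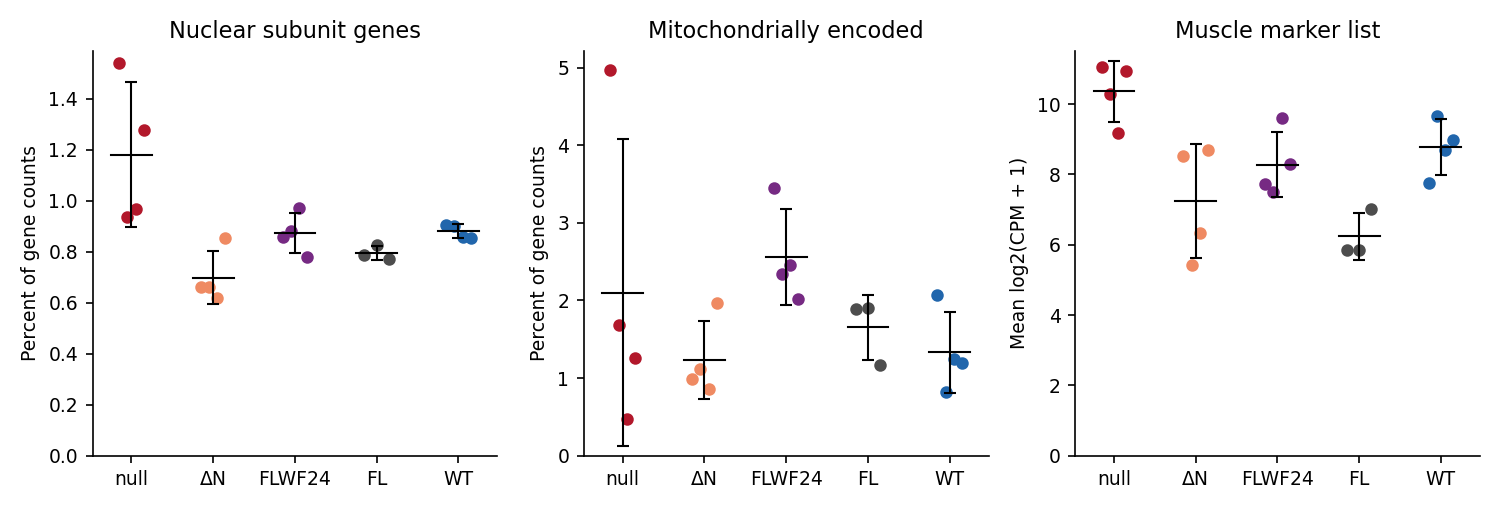
Each point is a library. Left, nuclear OXPHOS subunit genes as a percent of gene counts; centre, mitochondrially encoded subunit genes as a percent of gene counts; right, mean log2(CPM + 1) of the muscle marker list. Lines and bars are mean and SD. Null libraries lie at 0.938% to 1.54% in the left panel and ΔN libraries at 0.619% to 0.854%.

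Transcripts of the mitochondrial genome followed another order. Their share of gene counts was 0.474% to 4.98% in null, 0.856% to 1.97% in ΔN, 2.02% to 3.44% in FLWF24, 1.17% to 1.90% in FL and 0.819% to 2.07% in WT. FLWF24 libraries had 2.95 ± 0.720 mitochondrial counts for each nuclear subunit count (SD, n = 4), against 1.51 ± 0.572 in WT (n = 4) and 2.07 ± 0.486 in FL (n = 3). Null libraries alone spanned 0.490 to 3.23. None of the 12 tested mitochondrial genes was called by edgeR in any comparison. At an unadjusted p under 0.05, 4 of 12 were higher in FLWF24 than in WT and 5 of 12 were lower in ΔN than in FLWF24, with mt:ND1, a core subunit of complex I, at a log2 fold change of -2.97 in ΔN against FLWF24 (SE 0.702, edgeR adjusted p 0.121).

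In null embryos, subunit genes had higher values than in both controls, though hardly any gene passed the test alone. Against WT, 1 of 75 tested members was called (edgeR, a Benjamini-Hochberg p below 0.05 across the whole table with a log2 difference of 0.5 or more in size), where 0.726% of all tested genes were. Against FL none was called by edgeR or by DESeq2, where edgeR called 0.551% and DESeq2 4.44% of all tested genes. At an unadjusted p under 0.05, 21 members were higher in null than in WT and 0 lower, against 6.35% and 5.35% of all tested genes. In null against FL, 14 were higher and 0 lower, against 8.15% and 3.93% of all tested genes. The fold change was positive in 62 of 75 members against WT and in 69 against FL, beside 52.1% and 52.8% of all tested genes. The median log2 fold change of the members was 0.31 against WT and 0.44 against FL, where the median of all tested genes was 0.03 and 0.05. In a fit of the null and FL libraries alone the members' median against FL was 0.14, beside 0.13 for all genes tested there, with 46 of 70 members positive and 0 at an unadjusted p under 0.05, so in that fit the members were level with other genes. The comparisons share the null libraries.

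The called member was cype, which encodes a small accessory subunit of cytochrome c oxidase, complex IV (2L, 5327227 to 5327969, plus strand). It had 198.4, 115.3, 122.0 and 120.7 CPM in null libraries, against 91.1, 42.6, 67.9 and 67.0 CPM in WT. No null library overlapped with WT. Its log2 fold change was 1.22 (SE 0.280, edgeR adjusted p 0.0405). In FL, cype was at 112.3, 107.8 and 98.1 CPM, just below the lower null libraries (0.65, SE 0.341, adjusted p 0.459). The call against WT stood without null replicate 3, FL replicate 4, ΔN replicate 1, 2 or 4, or WT replicate 1, and was lost without any 1 of the other 13 libraries, at log2 fold changes of 0.98 to 1.38 over all 19 such fits. It was also lost with RLE or upper-quartile scaling and in a fit of the null and WT libraries alone.

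Complex IV had the highest median of the 5 complexes in null embryos, at 0.53 against WT and 0.60 against FL, with all 10 of its members above 10 CPM positive in both. Of these, 5 had an unadjusted p under 0.05 against WT. COX7C, an accessory subunit, was at 382.0, 174.7, 215.1 and 256.7 CPM in null libraries and at 176.5, 121.8, 129.6 and 121.1 CPM in WT, which gave a log2 difference of 0.93 (SE 0.262, adjusted p 0.119). COX5A, the most abundant complex IV gene per kb, differed less (0.41 against WT, SE 0.242, adjusted p 0.536).

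Complex V had medians of 0.37 against WT and 0.39 against FL over 11 members. ATPsynC was at 2635, 1575, 1222 and 1909 CPM in null libraries, against 765.3, 836.3 and 937.4 CPM in FL and 728.5, 971.9, 1034 and 1032 CPM in WT. All null libraries were above all controls, and the fitted log2 fold change was 0.61 against WT (SE 0.180, adjusted p 0.138) and 0.48 against FL (SE 0.224, adjusted p 0.396). ATPsynD, a subunit of the stator stalk, had fold changes of 0.74 against WT (adjusted p 0.175) and 0.61 against FL (adjusted p 0.411). ATPsyndelta, of the central stalk, was at 0.92 in null against WT (adjusted p 0.138) but at 0.00 in null against FL, and it was also the member with the largest difference of FL against WT (0.92, SE 0.270, adjusted p 0.249). Its 3817 exon bases share 1358 with CG2962 on the opposite strand.

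Within complex I, the medians of core and accessory subunits differed while their ranges overlapped, and the classes were not tested against each other. The 7 core subunits had a median log2 fold change of 0.18 in null against WT and 0.21 against FL, with none at an unadjusted p under 0.05. The 25 accessory subunits above 10 CPM had medians of 0.47 and 0.58, with 8 and 6 at that level. ND-AGGG, an accessory subunit, had the largest fold change of all members above 10 CPM in both, at 1.31 against WT (SE 0.596, adjusted p 0.396) and 1.74 against FL (SE 0.723, adjusted p 0.324). Its levels were low and spread, at 25.1 to 79.2 CPM in null, 8.44 to 26.2 CPM in FL and 12.8 to 38.7 CPM in WT. ND-B14.5A was the lowest member in null against FL (-0.33, adjusted p 0.838). Complex II had the lowest median in null against WT (0.02), with SdhA, the flavoprotein that oxidises succinate, at -0.08 (adjusted p 0.932).

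These fold changes depend on the factor of unwanted variation in the fit, which took values of 2.08 and 1.51 in null replicates 1 and 4 and between -1.17 and 1.35 elsewhere. Without it, 15 members were called higher in null against FL, among them ATPsynC, ATPsynbeta, UQCR-C1 and SdhA, where 10.9% of all genes tested were called, and 7 were called in null against WT, where 1.47% of all genes were. With the stage score in its place, no member was called in either, where 0.0167% of all tested genes were against FL and 0.225% against WT. The members' medians in that fit were 0.25 against both controls, beside 0.04 and -0.03 for all tested genes. In null embryos, markers of muscle, cuticle and neurons moved with the members. Of 15 muscle markers, 2 (Act57B and Prm) were called higher in null against FL and 1 against WT. At an unadjusted p under 0.05, 13 muscle markers were higher in null than in FL and 4 than in WT. At that level, 3 of 10 cuticle markers were higher than in FL and 2 of 10 than in WT. Of 9 neuron markers, 6 were higher in null than in FL at that level and 2 than in WT, with medians of 1.88 and 0.78, and cac was called against FL. Of 7 hemocyte and fat body markers, 2 were higher in each, and vkg was called against FL. However, only 4 of the 7 were positive against FL (median 0.11), and 6 were against WT (0.47). No glia or midgut marker reached that level in either comparison. Against FL and WT the medians were -0.18 and -0.05 for glia and 0.19 and 0.29 for midgut. The mean muscle level was 9.17 to 11.1 on the log2 scale in null, 5.85 to 7.02 in FL and 7.75 to 9.65 in WT, and the part of these tissues in the result was not tested.

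**Figure D3:**
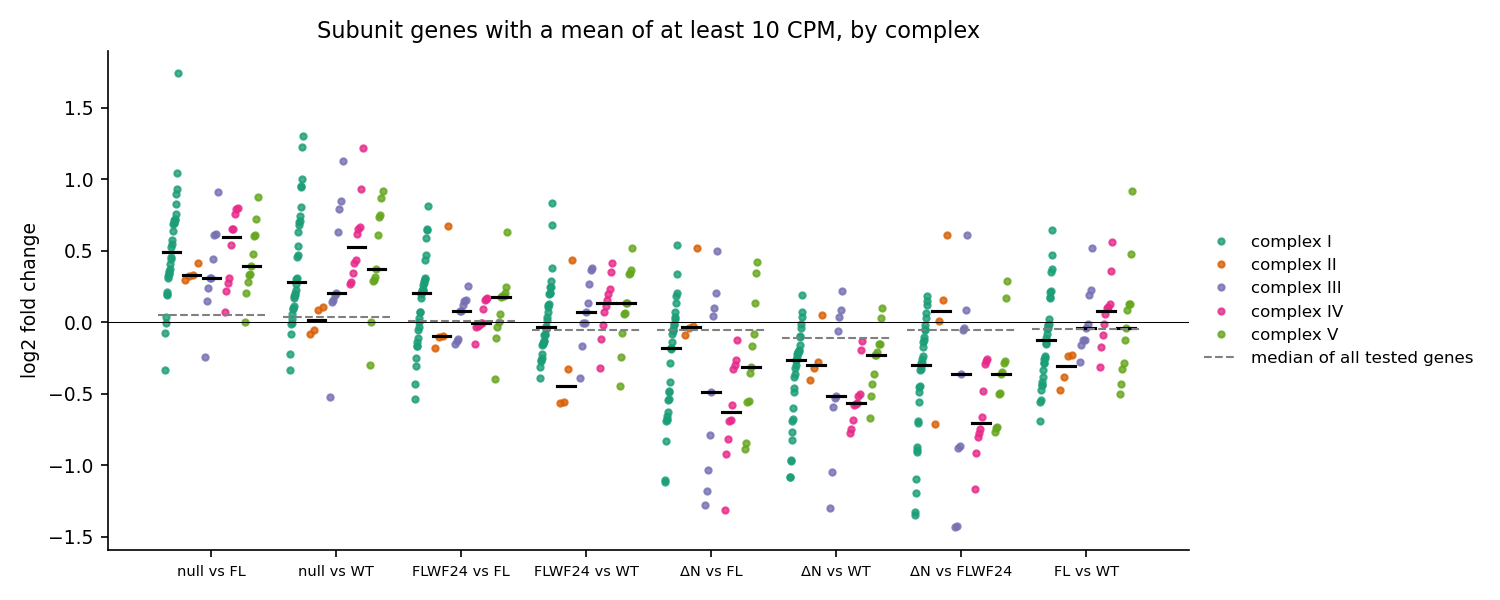
Log2 fold change of the 66 subunit genes with a mean of at least 10 CPM in each comparison, coloured by complex. Short black lines are medians of a complex and dashed grey lines are medians of all tested genes. In null against WT and against FL most points lie above 0, and in ΔN against FLWF24 complex IV has the lowest median (-0.70).

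ΔN embryos showed the opposite direction. The transgenes also differed in chif RNA, with a mean of 444.7 CPM in ΔN and 254.1 CPM in FLWF24, and its part was not tested. Against FLWF24, the other transgene that makes Chiffon-B, 3 of 75 members were called, all lower in ΔN, where 0.342% of all tested genes were. Before adjustment, at a p under 0.05, 2 were higher and 26 lower, against 3.97% and 7.82% of all tested genes. The median log2 fold change of the members was -0.34, and that of all tested genes was -0.06. Against FL no member was called by edgeR, where 0.0167% of all tested genes were, and DESeq2 called 1 higher and 2 lower, where it called 2.96% of all tested genes. In this comparison, 3 were higher and 22 lower at an unadjusted p under 0.05, against 3.79% and 6.79% of all tested genes. Against WT none was called by edgeR or by DESeq2, where edgeR called 0.0751% and DESeq2 2.16% of all tested genes. At an unadjusted p under 0.05, 0 were higher and 16 lower, against 3.03% and 7.42% of all tested genes. The medians of the members were -0.30 in both, where those of all tested genes were -0.06 against FL and -0.11 against WT. These 3 comparisons share the ΔN libraries. In ΔN against FL, 14 of 15 muscle markers were positive (median 1.10), opposite to the members. At an unadjusted p under 0.05, 4 of them were higher and 0 lower. All 10 cuticle markers were positive there as well (median 0.86). The muscle medians were -0.43 against WT and -0.13 against FLWF24, and the cuticle medians were 0.08 and 0.56. The part of these tissues was not tested.

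UQCR-6.4 was the member with the smallest adjusted p. It encodes a small accessory subunit of complex III (2R, 17572096 to 17572784, minus strand). Of its 561 exon bases, 227 are shared with POSH on the opposite strand, and the effect on its value was not tested. UQCR-6.4 had 14.1, 15.1, 16.7 and 17.9 CPM in ΔN libraries, against 33.0, 54.3, 50.3 and 42.0 CPM in FLWF24. The ΔN values lay close together, and all were below every other library, where the lowest was an FL library at 31.0 CPM. It fell by 1.43 on the log2 scale in ΔN against FLWF24 (SE 0.268, edgeR adjusted p 0.0141). Against FL and WT the log2 fold changes were -1.27 (SE 0.276, adjusted p 0.125) and -1.04 (SE 0.269, adjusted p 0.185). The call against FLWF24 held in 18 of the 19 fits without 1 library and was lost without FLWF24 replicate 2.

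In the same comparison cype was called lower as well, at 29.4, 59.4, 42.2 and 38.3 CPM in ΔN libraries, against 93.4, 106.1, 85.7 and 74.0 CPM in FLWF24. It fell by 1.16 on the log2 scale (SE 0.253, adjusted p 0.0410), and had a log2 fold change of -1.31 against FL (SE 0.260, adjusted p 0.0846) and of -0.75 against WT (adjusted p 0.321). The groups of ΔN and FLWF24 did not overlap. ND-B14.5B, an accessory subunit of complex I (2L, 3144953 to 3145848, minus strand), had 42.9, 50.8, 22.3 and 16.1 CPM in ΔN, against 82.5, 90.8, 63.9 and 77.4 CPM in FLWF24. It fell by 1.33 on the log2 scale (SE 0.294, adjusted p 0.0478). The call of cype stood without null replicate 1, 2 or 3, ΔN replicate 2 or WT replicate 2 and was lost without any 1 of the other 14 libraries, with adjusted p-values up to 0.168. The call of ND-B14.5B stood without null replicate 1, 2 or 3 or ΔN replicate 1 or 2 and was lost without any 1 of the other 14, with adjusted p-values up to 0.166. In a fit of the ΔN and FLWF24 libraries alone none of the 3 was called, at log2 fold changes of -1.46 for UQCR-6.4, -1.16 for cype and -1.30 for ND-B14.5B.

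**Figure D4:**
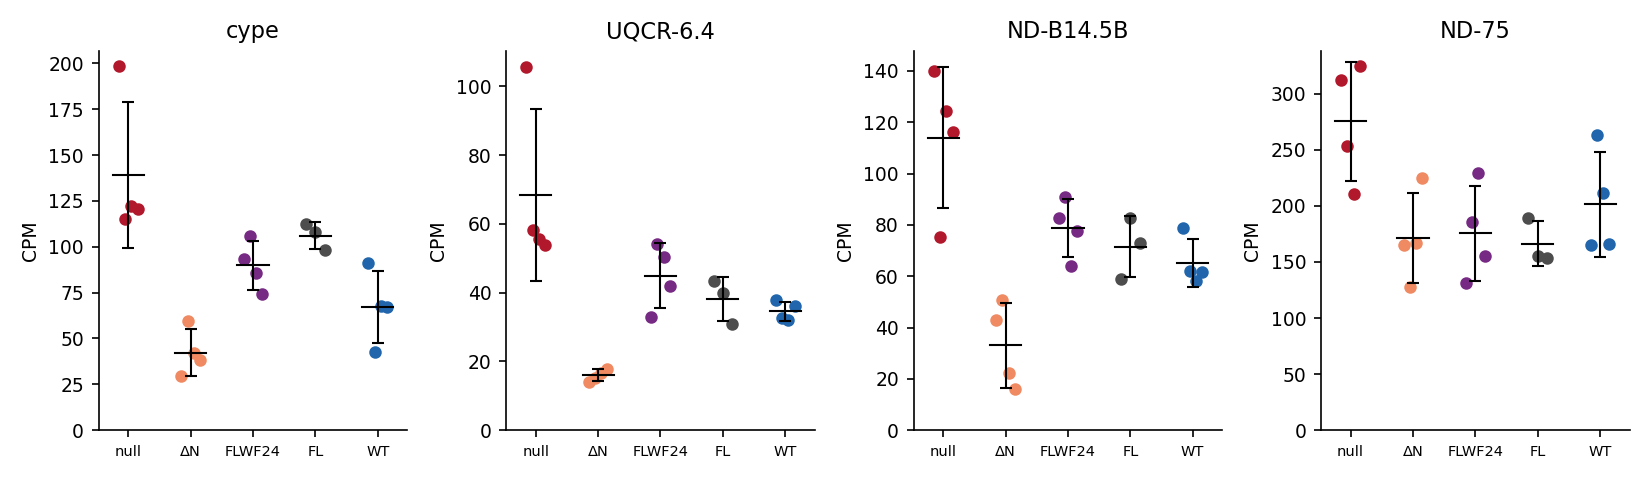
CPM in each library of the 3 called members and, for comparison, of ND-75, the largest core subunit of complex I. Lines and bars are mean and SD. UQCR-6.4 lies at 14.1 to 17.9 CPM in ΔN and at 33.0 to 54.3 CPM in FLWF24, and null replicate 1 is the highest library of cype and UQCR-6.4.

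Close to the threshold was ND-ASHI, an accessory subunit of complex I, with 28.4 to 63.3 CPM in ΔN and 83.7 to 130.7 CPM in FLWF24 (log2 fold change -1.19, SE 0.276, adjusted p 0.0608). It was also the highest member in FLWF24 against WT (0.83, SE 0.268, adjusted p 0.305). ox, an accessory subunit of complex III, had the lowest fold change of the members above 10 CPM, at -1.43 against FLWF24 (adjusted p 0.153) and -1.30 against WT (adjusted p 0.285). Its ΔN libraries held 32.2, 17.7, 8.19 and 7.55 CPM, against 49.5, 54.1, 38.4 and 39.0 CPM in FLWF24. Leaving out ΔN replicate 1, the highest of the 4, 7 members were called lower in ΔN than in FLWF24, ox among them, where 0.553% of all genes tested were called, and ox was called lower than in WT.

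Every one of the 10 complex IV members above 10 CPM had a negative fold change in ΔN against FLWF24, FL and WT, with medians of -0.70, -0.63 and -0.57. Of these, 7 had an unadjusted p under 0.05 against FLWF24, and 6 against each of FL and WT. The 4 genes of complex II had medians of 0.08 against FLWF24, -0.03 against FL and -0.30 against WT. SdhC, a membrane anchor of succinate dehydrogenase, was at 60.6, 56.0, 62.3 and 76.3 CPM in ΔN libraries, against 40.7, 46.7, 43.6 and 40.5 CPM in FLWF24 (0.61, SE 0.249, adjusted p 0.351), so its groups did not overlap in the opposite direction. UQCR-14, with the overlap described above, was likewise at 0.61 (adjusted p 0.313), and ND-B16.6, an accessory subunit of complex I, was the largest in ΔN against FL (0.54, adjusted p 0.447).

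Fold changes in ΔN differed with exon length. Of 14 members with up to 700 exon bases, 10 were lower in ΔN than in FLWF24 at an unadjusted p under 0.05, and their median log2 fold change was -0.76. The next classes had medians of -0.34 (29 members of up to 1000 bases), -0.05 (10 of up to 1500) and -0.28 (13 longer ones), so the members did not follow length step by step. The medians of other tested genes in the same 4 classes were -0.43, -0.28, -0.19 and 0.00. Of 1319 other genes of up to 700 bases, 165 were lower and 82 higher at an unadjusted p under 0.05. ND-75, with 2634 exon bases, was at 128.0 to 225.1 CPM in ΔN and 131.7 to 229.6 CPM in FLWF24 (0.12, adjusted p 0.864). The core subunits of complex I had a median of -0.13, against -0.44 for the accessory ones. Core subunits had 819 (ND-23) to 2634 exon bases, and the accessory ones above 10 CPM 477 (ND-B15) to 1618 (ND-42). Complex IV members above 10 CPM had 417 (COX7B) to 1231 (COX4). Complex, subunit class and exon length were not separated in these fold changes.

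In null against WT, the order by length was seen in the members (0.64 for up to 700 bases, 0.19 over 1500) but not in other genes (-0.05 and 0.05). Across the 66 members above 10 CPM, Pearson's r of the log2 fold change with log2 exon length was 0.39 in ΔN against FLWF24. It was 0.49 in ΔN against WT and -0.20 in null against WT. Across 11836 other tested genes it was 0.05, 0.06 and 0.04. No CPM floor was set for other genes, here or in the length classes, so they are not matched to the members in level. The r values are descriptions across genes, which share libraries and are not independent replicates. With a smooth trend on exon length removed from each library, the members' median was -0.22 in ΔN against FLWF24 beside -0.14 for all tested genes, and 1 member, UQCR-6.4, was called. In ΔN against FL the members' median in that fit was -0.11, beside -0.12 for all tested genes.

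**Figure D5:**
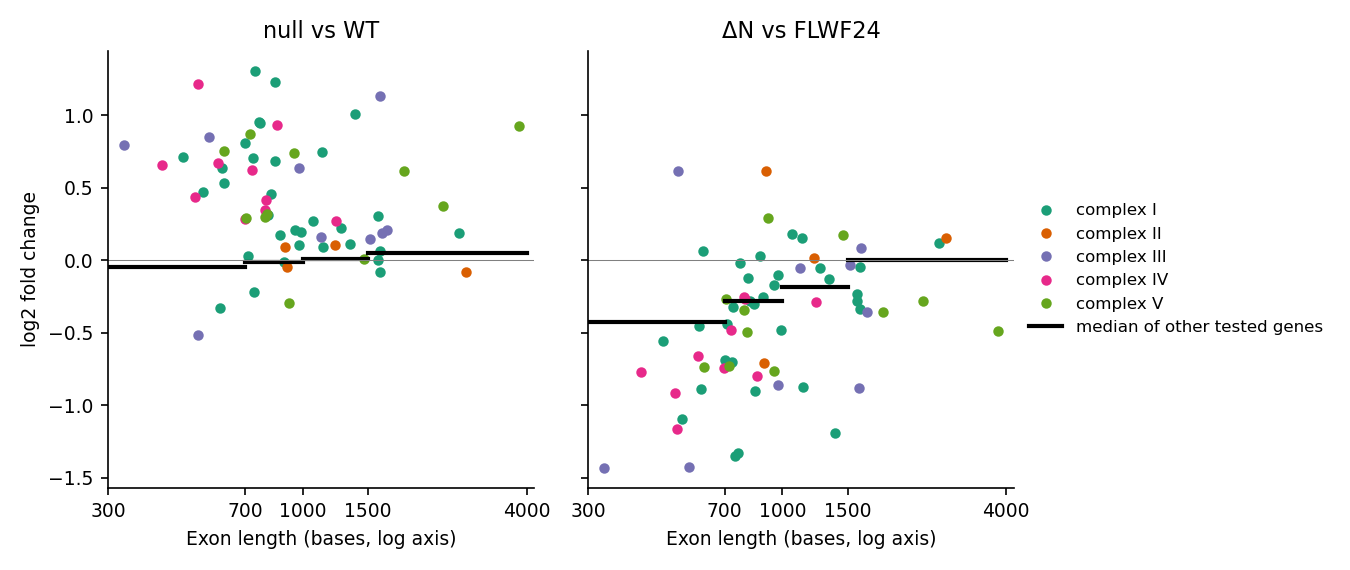
Log2 fold change of the 66 subunit genes above 10 CPM against exon length (log axis), in null against WT (left) and ΔN against FLWF24 (right), coloured by complex. Black steps are medians of the other tested genes, at any CPM, in 4 length classes. In the right panel members of up to 700 bases have a median of -0.76, and other genes in that class -0.43.

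FLWF24 embryos were set against both controls. By edgeR no member was called against FL, where 0.00835% of all tested genes were, or against WT, where 0.184% were. DESeq2 called none against FL, where it called 1.69% of all tested genes, and 1, SdhA, lower against WT, where it called 1.74%. Against FL, 5 members were higher and 1 lower at an unadjusted p under 0.05, against 3.72% and 2.68% of all tested genes. Against WT, 2 were higher and 2 lower, against 4.23% and 5.85%. The members' medians were 0.08 and 0.03, where those of all tested genes were 0.01 and -0.05. The lower ones against WT were both of complex II. SdhA was at 91.1, 109.9, 140.2 and 117.5 CPM in FLWF24 libraries and at 156.8, 199.4, 142.8 and 185.8 CPM in WT (-0.56, SE 0.162, adjusted p 0.239), and SdhC was at -0.56 (adjusted p 0.449). Of 15 muscle markers, 8 were higher and 0 lower in FLWF24 than in FL at an unadjusted p under 0.05 (median 1.25). Against WT the muscle median was -0.26, and the part of muscle was not tested.

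Between FL and WT, which served as controls, no member was called by edgeR or by DESeq2, where edgeR called 0.109% and DESeq2 2.83% of all tested genes. At an unadjusted p under 0.05, 2 members were higher in FL and 2 lower, against 3.31% and 5.46% of all tested genes, and the median was -0.09, where that of all tested genes was -0.05. The members' median was -0.22 in a fit of these groups alone, beside 0.04 for all genes tested there. At that level 3 members were higher and 13 lower of 73, against 683 and 799 of all 10253 genes. Without the factor of unwanted variation the members' median was -0.21, beside -0.08 for all tested genes. There 2 members were higher and 9 lower of 75, against 439 and 1058 of all 11978 genes. Of 15 muscle markers, 9 were lower in FL than in WT at that level (median -1.66), and their part in this was not tested. ND-B14.7, an accessory subunit of complex I, was the lowest (-0.69, adjusted p 0.470), at 37.7, 49.1 and 31.3 CPM in FL libraries and at 85.6, 70.7, 60.5 and 55.2 CPM in WT.

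Subunit transcripts varied together across libraries. For the 66 members above 10 CPM, Pearson's r of log2(CPM + 1) with the mean of the other members over the 19 libraries had a median of 0.76, and 48 were above 0.7. After the mean of each genotype was taken out, the median was 0.61. Across 7321 other genes of that level, the median r with the members' mean was -0.03. The points share libraries, depth and scaling, so these are descriptions. ATPsynF followed the mean most closely (0.95), while SdhC (0.30) and UQCR-14 (-0.05) followed it least. Within genotypes these 2 had an r of 0.77 and 0.66, above the median. The 5 genes outside the set with the most similar pattern over the 19 libraries were Vha14-1 (r = 0.94), a subunit of the vacuolar proton pump, porin (0.93), the channel of the outer mitochondrial membrane, Fdx2 (0.90), a ferredoxin, CG32280 (0.90) and CG11151 (0.90).

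Other genes of the pathway were followed as lists. Of 14 tested genes of the TCA cycle, which supplies NADH and succinate, 6 were higher in null than in WT at an unadjusted p under 0.05 and none was called in any comparison. The median log2 fold change of this list was 0.37 in null against WT and -0.24 in ΔN against FLWF24. Of 11 tested assembly factors, 1 was called: Sirup, an assembly factor of succinate dehydrogenase, at 10.4 to 31.9 CPM in null and 133.8 to 289.1 CPM in WT (fitted log2 fold change -4.84, SE 0.766, adjusted p 0.00792). It was at 12.1 to 92.5 CPM in ΔN, 13.2 to 223.6 CPM in FLWF24 and 36.7 to 44.3 CPM in FL, so FL, with full-length *chiffon*, was below every WT library as well. The 10 tested electron carriers and transporters (median 0.31 in null against WT and -0.37 in ΔN against FLWF24) and the 10 tested genes of mitochondrial genome upkeep and regulation (-0.14 and -0.09) had no call. No gene of the testis list was tested.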

How the data were processed

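Reads were trimmed (Trimmomatic), aligned to BDGP6 (dm6) with HISAT2 and counted per gene with HTSeq 0.11.1 at default settings by the authors, which use strand, while the library kit is not known to keep it. The deposited values are raw counts, with 0 columns left unused. Other rows of the table (unassigned reads, spike-ins and reporters) held 63.6% to 96.0% of each column and were left out, as were 138 rRNA genes. Symbols, coordinates and exon lengths were read from a newer BDGP6 annotation. FL columns are numbered 2 to 4 in the table but 1 to 3 in the labels, and were therefore placed as a group, under the number in the table. No sequences are given.

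All 19 libraries were fitted in edgeR 4.0.16 (R 4.3.3; quasi-likelihood, robust, TMM scaling, filterByExpr by genotype) with 1 RUVs factor of unwanted variation. The study names this method but not its number of factors. Adjusted p-values are Benjamini-Hochberg over 11978 genes and two-sided. CPM are TMM-scaled. The fit was tested on simulated counts with known changes. Those counts held no shared unwanted factor, stage or length effect, so that test does not bear on these. Embryos were pooled per library, so p-values measure the spread between such pools. Reads carried no molecular identifiers, so PCR duplicates add to the counting error of low values.

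The 8 comparisons were refitted under 10 other settings (DESeq2 1.42.0 among them) and without each library in turn. Members, lists and tests were chosen with earlier results of these data known. Named members are the highest per kb in each complex, those called, the largest and smallest fold change in each comparison among members with a mean of at least 10 CPM, the smallest p in each complex, and L-type copies with their main genes. ND-75, ATPsynF, UQCR-C1, mt:ND1 and Sirup, and the classes of exon length and of core subunits, were chosen after values were seen.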

Additional observations from a re-analysis of the deposited data

Results flagged for a closer look

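In groups of 4 libraries, a library was looked for whose gap to its nearest neighbour took up most of the group's range (Dixon's 95% value), for the summed shares and for each named member of at least 10 CPM. Of 132 groups 11 had one, where chance gives about 1 in 20. Null replicate 1 was the library in 5 of the 11, always as the highest. It had 198.4 CPM of cype (the others 115.3 to 122.0), 105.8 CPM of UQCR-6.4 (54.0 to 58.2), 194.2 CPM of ND-ASHI (89.3 to 105.4), 192.2 CPM of ND-B16.6 (134.0 to 139.4) and 427.9 CPM of UQCR-11 (114.8 to 164.8). This library also had the highest mitochondrially encoded share of all 19 (4.98%) and the highest value of the factor of unwanted variation (2.08).

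The other 6 were spread over genotypes. ΔN replicate 1 had 119.1 CPM of COX7A (51.3 to 60.2). FLWF24 replicate 3 had 1245 CPM of ATPsynC (897.3 to 939.3), and FLWF24 replicate 1 had 167.2 CPM of ND-B16.6 (110.2 to 118.8). WT replicate 1 had 324.2 CPM of COX5A (287.4 to 292.2) and 176.5 CPM of COX7C (121.1 to 129.6), and WT replicate 2 had 168.7 CPM of ND-51 (104.7 to 114.6).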

How the results depend on the processing

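Called subunit genes numbered 0 for null against FL and 1 for null against WT. Without the factor of unwanted variation these numbers were 15 and 7, where 10.9% and 1.47% of all genes were called. In null against WT it was 7 with DESeq2, which called 2.96% of all genes. It was 0 with RLE scaling (0.785% of all genes), with upper-quartile scaling (0.818%) and in the compared groups alone (0.24%). It was also 0 with the stage score in place of the factor (0.225%) and without FL libraries (0.591%, a setting chosen after seeing the data). In ΔN against FLWF24, with 3 called, it was 1 without the factor, with RLE or upper-quartile scaling and without the low count filter. It was also 1 with the gene length offset and without FL libraries. In these settings 0.179% to 0.259% of all genes were called. The number was 0 in the compared groups alone (0.335% of all genes). It was 4 with DESeq2 (2.72%) or with the stage score in place of the factor (0.593%). In FLWF24 against WT the number was 1 with DESeq2 (1.74% of all genes) and 1 in the compared groups alone (1.17%), each against 0. In ΔN against FL it was 3 with DESeq2 (2.96% of all genes), against 0. The causes were not tested.

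Leaving out 1 library gave 0 to 5 called in null against WT and 0 to 7 in ΔN against FLWF24. The 5 came without null replicate 3, where 2.4% of all genes were called, against 0.726% with all libraries. The 7 came without ΔN replicate 1 (0.553% of all genes) and the 0 without FLWF24 replicate 2 (0.202%). In ΔN against FL the range was 0 to 2 (2 without ΔN replicate 2, 0.0922% of all genes). In ΔN against WT it was 0 to 1 (1 without ΔN replicate 1, 0.318%). Of 24 same-numbered pairs 6 had a correlation of deviations over 0.1, so the numbers were not taken as pairs. With the replicate block, the counts were 0 in null against WT (0.627% of all genes) and 0 in ΔN against FLWF24 (0.143%). FL libraries were left out of that fit.

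The members' median kept its sign under every alternative run in null against FL (0.14 to 0.70), null against WT (0.22 to 0.55), ΔN against FL (-0.41 to -0.11), ΔN against WT (-0.45 to -0.21), ΔN against FLWF24 (-0.47 to -0.22) and FLWF24 against FL (0.01 to 0.20), but not in FLWF24 against WT or FL against WT. A kept sign is no difference from other genes: at the low ends, the median of all genes was 0.13 beside 0.14 in null against FL (compared groups alone) and -0.12 beside -0.11 in ΔN against FL (gene length offset).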
